A study of Mus musculus with 13 samples.

Results

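The miRNAs described here are mmu-miR-26a-5p, mmu-miR-26b-5p, mmu-miR-101a-3p and mmu-miR-101b-3p (written below without the species prefix), 4 of the 1079 mouse miRNAs on a 1-colour Agilent array. They were chosen by name, as miRNAs reported to repress EZH2 or MYCN, and all probes annotated to them were used. The samples were 13 primary abdominal neuroblastomas of TH-MYCN mice, in which the tyrosine hydroxylase promoter drives MYCN in cells of the sympathetic lineage. Caspase-8 was deficient in 7 of the tumours, which came with metastasis to the bone marrow, and wild type in the other 6, which came without it. Genotype and metastasis changed together and cannot be told apart. The labels give no age or sex and do not say how the deficiency was made. They call the tumours of a group biological replicates, and 1 array was hybridised per tumour with 100 ng of labelled total RNA. All 4 miRNAs were detected on all 13 arrays and were therefore among the 419 miRNAs tested.

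A miRNA guides Argonaute proteins to messenger RNAs that pair with its seed, bases 2 to 8 from its 5′ end, and lowers their translation and stability. EZH2 is the catalytic subunit of Polycomb repressive complex 2 and methylates histone H3 at lysine 27. Both miR-26 and miR-101 are known to repress EZH2 messenger RNA, miR-101 has also been reported to repress MYCN, and MYC has been reported to lower miR-26 transcription. EZH2 and MYCN themselves were not measured on these arrays.

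The mature sequences, from RefSeq (GRCm38.p6), are shown with the seed in capitals, because the miR-26 members have the same seed and differ only outside it, while the seeds of the miR-101 members differ by a shift.
miR-26a-5p: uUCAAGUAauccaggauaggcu
miR-26b-5p: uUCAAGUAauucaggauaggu
miR-101a-3p: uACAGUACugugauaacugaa
miR-101b-3p: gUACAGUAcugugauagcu
miR-101c: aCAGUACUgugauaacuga
miR-144-3p: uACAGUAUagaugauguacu
The miR-26 members had the same seed, which no other mature miRNA in the RefSeq table carried. Over 21 aligned bases they differed by 2 substitutions, C11U and C21U, counted from 1 at the 5′ end of miR-26a-5p. As listed in RefSeq, miR-101b-3p starts 1 base further 5′ than miR-101a-3p, so that its seed is shifted by 1 base. Over the 18 bases that overlap, they were identical at 17 and differed by A16G, counted from the 5′ end of miR-101a-3p. All 19 bases of miR-101c, which also lies on the array, are contained in miR-101a-3p. miR-144-3p, an erythroid miRNA that has also been reported to repress EZH2, has the same bases 2 to 7 as miR-101a-3p, but only 8 of its 20 bases match overall. How far probes for such close sequences also bind the relative was not tested.

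The 4 mature miRNAs come from 5 loci. miR-26a-5p is made from Mir26a-1 (chr9:119031811-119031832, plus strand) and from Mir26a-2 (chr10:126995543-126995564, plus strand), and the array cannot tell these sources apart. miR-26b-5p comes from Mir26b (chr1:74394324-74394344, plus strand). These 3 loci lie within Ctdspl, Ctdsp2 and Ctdsp1, genes of the small phosphatases that act on the C-terminal domain of RNA polymerase II. miR-101a-3p comes from Mir101a (chr4:101346957-101346977, minus strand), within the noncoding gene E130102H24Rik, and miR-101b-3p from Mir101b (chr19:29135338-29135356, plus strand), within Rcl1. The opposite arms miR-26a-1-3p, miR-26a-2-3p, miR-26b-3p, miR-101a-5p and miR-101b-5p were on the array and were detected in 0 of 13 tumours.

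None of the 4 miRNAs differed between deficient and wild-type tumours beyond the spread among tumours. The differences lay between −0.11 and 0.01 on the log2 scale, and the ranges of the groups overlapped for each miRNA. Two-sided limma with Benjamini-Hochberg adjustment called 0 of the 4 at an adjusted p under 0.05, where it called 0% of all 419 tested miRNAs. At an unadjusted p under 0.05 it called 0 of the 4 and 16 of the 419, or 3.82%, with 10 of these (2.39%) higher and 6 (1.43%) lower in deficient tumours. An exact permutation test over all 1716 splits of the tumours also called 0 miRNAs after adjustment and 13 before it. Levels are log2 of the summed probe signal after scaling to the 75th percentile of each array. The brightness of a probe depends on its sequence, so the levels of different miRNAs are not compared.

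miR-26a-5p, the member of the pair with more than 1 locus, had levels of 10.94, 9.09, 10.24, 10.08, 10.04, 10.56 and 10.19 in deficient replicates 1 to 7, against 10.15, 9.54, 9.91, 9.82, 10.88 and 10.61 in wild-type replicates 1 to 6. The highest and the lowest tumour of all were both deficient, and the other tumours of both groups lay between them. The mean was 10.16 ± 0.57 in deficient tumours (SD, n = 7) and 10.15 ± 0.51 in wild-type tumours (SD, n = 6). The difference was 0.01 on the log2 scale (SE 0.29, limma adjusted p = 0.995). Its 95% interval ran from a ratio of 0.65 to a ratio of 1.56 of deficient over wild type.

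miR-26b-5p, with the same seed, had levels of 9.77, 7.90, 8.46, 8.52, 8.62, 9.28 and 8.91 in deficient replicates 1 to 7, against 8.59, 8.08, 8.62, 8.58, 9.91 and 9.13 in wild-type replicates 1 to 6. Deficient replicate 1 and wild-type replicate 5 stood highest and deficient replicate 2 lowest, as for miR-26a-5p. The mean was 8.78 ± 0.61 in deficient tumours (SD, n = 7) and 8.82 ± 0.63 in wild-type tumours (SD, n = 6). The difference was −0.04 on the log2 scale (SE 0.33, limma adjusted p = 0.989), with a 95% interval of the ratio from 0.60 to 1.59.

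miR-101a-3p, the miR-101 family member with the seed ACAGUAC, had levels of 8.12, 7.58, 7.62, 8.0, 7.72, 7.82 and 7.55 in deficient replicates 1 to 7, against 7.97, 7.68, 8.34, 7.58, 7.91 and 7.79 in wild-type replicates 1 to 6. Wild-type replicate 3 was highest, and the lowest tumours of the groups were nearly level. The mean was 7.77 ± 0.22 in deficient tumours (SD, n = 7) and 7.88 ± 0.27 in wild-type tumours (SD, n = 6). The difference was −0.11 on the log2 scale (SE 0.17, limma adjusted p = 0.846), with a 95% interval of the ratio from 0.72 to 1.2.

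miR-101b-3p, its relative on another chromosome, had levels of 7.73, 7.26, 6.97, 7.37, 7.47, 7.22 and 7.01 in deficient replicates 1 to 7, against 7.21, 7.30, 7.77, 6.76, 7.36 and 7.29 in wild-type replicates 1 to 6. The highest and the lowest tumour were both wild type, so that the deficient range lay inside the wild-type range. The mean was 7.29 ± 0.27 in deficient tumours (SD, n = 7) and 7.28 ± 0.32 in wild-type tumours (SD, n = 6). The difference was 0.01 on the log2 scale (SE 0.19, limma adjusted p = 0.995), with a 95% interval of the ratio from 0.76 to 1.33. A change smaller than these intervals was not detectable with this number of arrays.

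**Figure D1:**
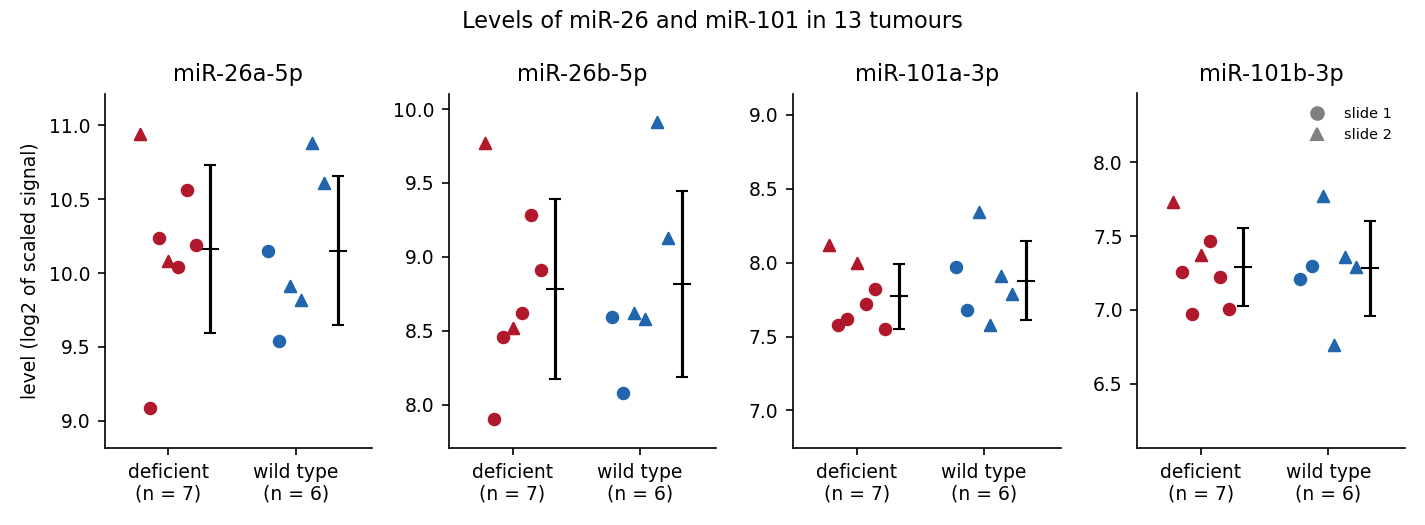
Levels of the 4 miRNAs (log2 of scaled signal, each panel with its own range) in 7 deficient tumours (left, red) and 6 wild-type tumours (right, blue). Circles are arrays of slide 1, triangles arrays of slide 2, and bars give the mean ± SD. The groups overlap in every panel.

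**Figure D2:**
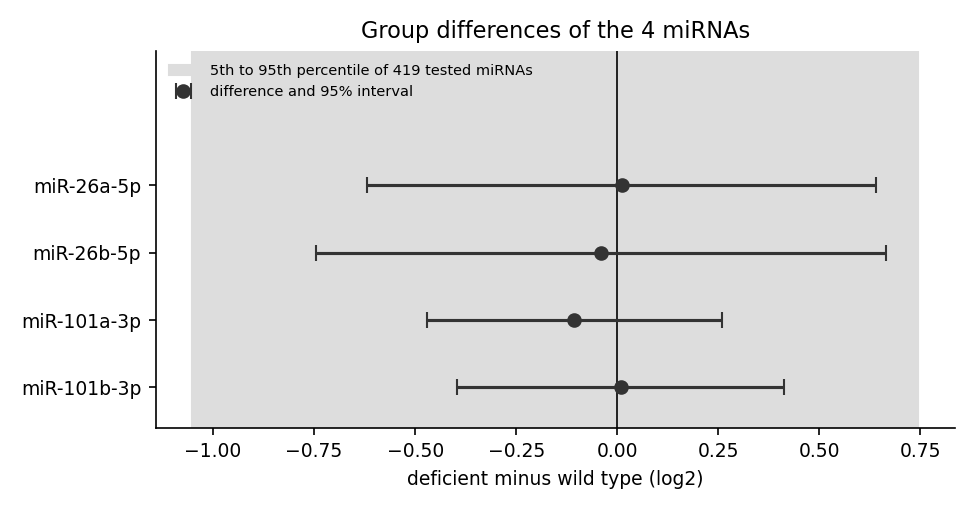
Difference of each miRNA in log2 units (points, deficient minus wild type) with its 95% interval (bars). All 4 intervals include 0 and lie inside the shaded band, which spans the 5th to 95th percentile of the differences of the 419 tested miRNAs.

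The arrays lay on 2 slides. Slide 1 held 5 deficient and 2 wild-type tumours, and slide 2 held 2 deficient and 4 wild-type tumours. With group in the model, the level on slide 2 minus that on slide 1 was 0.47 for miR-26a-5p, 0.61 for miR-26b-5p, 0.25 for miR-101a-3p and 0.21 for miR-101b-3p (log2, limma adjusted p between 0.816 and 0.827). At an unadjusted p under 0.05 the slide term passed for 0 of the 4 and for 6.21% of all 419, and the interaction of slide and group for 0 of the 4 and for 4.77%. With slide as a block, the group differences were 0.19 for miR-26a-5p, 0.20 for miR-26b-5p, −0.01 for miR-101a-3p and 0.09 for miR-101b-3p (limma adjusted p between 0.898 and 0.994). Within slide 1 they were 0.18, 0.30, −0.17 and −0.07 in the same order, and within slide 2 they were 0.20, 0.08, 0.16 and 0.26. None passed the threshold, and the signs of the differences of miR-101a-3p and miR-101b-3p were opposite on the 2 slides. That of miR-26b-5p was positive on both slides, against −0.04 without the block.

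Each miRNA was read by 2 probes with 20 spots each, and the probes of a miRNA gave the same picture. Across tumours, the probes correlated at r = 0.997 for miR-26a-5p, 0.999 for miR-26b-5p, 0.968 for miR-101a-3p and 0.958 for miR-101b-3p. The group difference by single probe lay between −0.15 and 0.01 on the log2 scale. The dimmer probe of miR-101b-3p had as few as 15% of its spots well above background on an array, whereas the other 7 probes had 100% on every array. Spots of a probe varied with a median coefficient of variation between 3.03% and 12.6%, and no spot was saturated.

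The miR-101 members spread less from tumour to tumour than the miR-26 members did. The SD over 13 tumours was 0.24 for miR-101a-3p and 0.28 for miR-101b-3p, at percentiles 3.74 and 12.2 of the 294 miRNAs detected on all arrays. For miR-26a-5p it was 0.52 and for miR-26b-5p 0.59, at percentiles 58.5 and 66.0. The median SD of the 294 miRNAs was 0.47. Between the lowest and the highest tumour, miR-26a-5p spanned 3.6-fold and miR-26b-5p 4.04-fold, while miR-101a-3p spanned 1.73-fold and miR-101b-3p 2.01-fold. With no scaling between arrays the miR-101 percentiles were 31.3 and 31.0 and the miR-26 percentiles 76.9 and 80.6, so that the order held while the low rank of miR-101 did not. The difference in spread between the families was not tested.

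**Figure D3:**
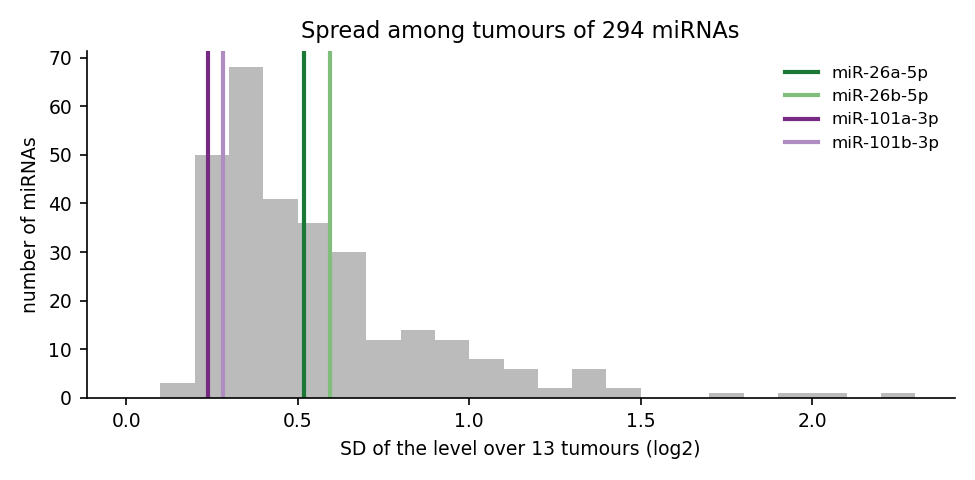
Histogram of the SD of the level over 13 tumours (log2) for the 294 miRNAs detected on all arrays, with the 4 miRNAs as vertical lines. The miR-101 members lie at the low end, at 0.24 and 0.28, and the miR-26 members near the middle, at 0.52 and 0.59.

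Within each family the measured levels of the members varied together across tumours. Their sequences are close, and how far a probe also binds the relative was not tested. For miR-26a-5p and miR-26b-5p, Pearson's r was 0.935 over 13 tumours (permutation p = 1e-05, the smallest that 100000 permutations can give, adjusted p = 6e-05 over 6 pairs), and Spearman's rho was 0.813 (permutation p = 0.00099, adjusted p = 0.00594). Without the 2 tumours farthest from the median of miR-26a-5p, deficient replicates 1 and 2, r was 0.911. It was 0.914 on slide 1 and 0.950 on slide 2, and 0.930 in deficient and 0.950 in wild-type tumours. As a description, this r stood at percentile 99.7 of the 43071 pairs among 294 miRNAs, whose median r was 0.02.

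For miR-101a-3p and miR-101b-3p, r was 0.807 (permutation p = 0.00073, adjusted p = 0.00219) and rho was 0.703 (permutation p = 0.00959, adjusted p = 0.0288). The value was 0.798 in deficient and 0.863 in wild-type tumours. It was 0.330 on slide 1 and 0.947 on slide 2, so that the relation was weak among the 7 tumours of slide 1. Without the 2 farthest tumours, deficient replicate 1 and wild-type replicate 3, it was 0.577, so it rested in part on those tumours.

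Across families, the 4 correlations lay between r = 0.222 and 0.376, with adjusted permutation p between 0.309 and 0.466. They were higher with no scaling between arrays, at 0.825 for miR-26a-5p with miR-101a-3p, 0.756 for miR-26a-5p with miR-101b-3p, 0.778 for miR-26b-5p with miR-101a-3p and 0.733 for miR-26b-5p with miR-101b-3p, where the overall brightness of an array enters both values. The absence of a call between the families thus held only with scaling, and for miR-26a-5p with miR-101a-3p not under scaling to the summed signal, where r was 0.635. Scaling to the 75th percentile over all miRNAs gave r between 0.50 and 0.587 (adjusted permutation p between 0.0527 and 0.0799). Without 1 tumour, r lay between 0.247 and 0.623, 0.00749 and 0.35, 0.235 and 0.575, and 0.0582 and 0.384, in the same order. Each was highest without wild-type replicate 3, and none passed (adjusted permutation p of 0.0621 or more). The log2 ratio of miR-101a-3p over miR-26a-5p was −2.39 ± 0.465 in deficient tumours (SD, n = 7) and −2.27 ± 0.538 in wild-type tumours (SD, n = 6), on a scale that has no meaning beyond the change between tumours.

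**Figure D4:**
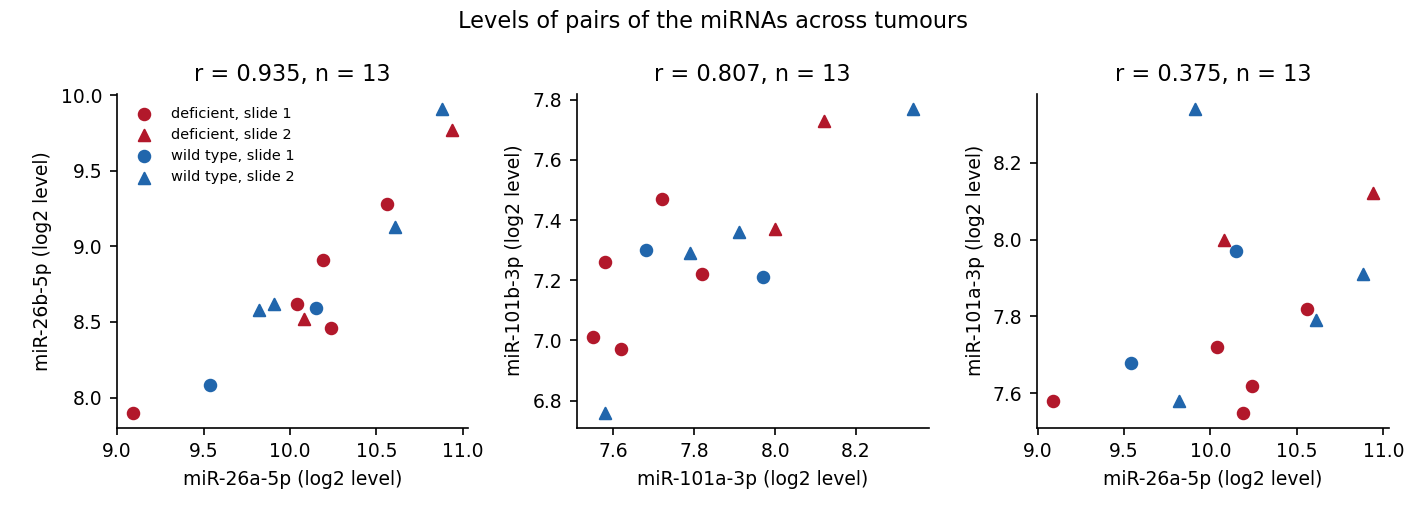
Levels (log2) of 3 pairs of the miRNAs, 1 point per tumour, red for deficient and blue for wild type, with circles for slide 1 and triangles for slide 2. The points of the miR-26 pair lie close to a line (r = 0.935), those of the miR-101 pair more loosely (r = 0.807), and miR-26a-5p with miR-101a-3p scatters (r = 0.375).

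miR-101c, whose listed sequence lies inside that of miR-101a-3p, was detected on all 13 arrays. Its levels were 6.68, 5.81, 6.09, 6.56, 6.10, 6.38 and 6.01 in deficient replicates 1 to 7, against 6.42, 5.92, 7.72, 6.42, 6.74 and 6.91 in wild-type replicates 1 to 6. Wild-type replicate 3 stood highest, and the groups overlapped. The difference was −0.46 on the log2 scale (SE 0.26, limma adjusted p = 0.589). Its r with miR-101a-3p was 0.836, and 0.693 without wild-type replicate 3. With miR-101b-3p it was 0.559, and 0.301 without that tumour. With miR-26a-5p and miR-26b-5p it was 0.40 and 0.418, and 0.78 and 0.742 without that tumour. Which member miR-101c was most like thus depended on this tumour. How far the probes of miR-101c and miR-101a-3p also bind the other was not tested. The log2 ratio of miR-101c over miR-101a-3p was −1.54 ± 0.122 in deficient tumours (SD, n = 7) and −1.19 ± 0.419 in wild-type tumours (SD, n = 6). It was highest in wild-type replicates 3 and 6, at −0.62 and −0.88.

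The miRNAs most like each member across the 13 tumours were taken from the 290 other miRNAs detected on all arrays, by Pearson's r and as a description. For miR-26a-5p these were miR-30b-5p (r = 0.912), miR-140-5p (0.869) and miR-425-5p (0.865). For miR-26b-5p they were miR-425-5p (0.964), miR-142-3p (0.883) and miR-30b-5p (0.883). miR-425-5p and miR-30b-5p were thus on both lists, and miR-142-3p is a miRNA of blood cells. The lowest values with miR-26a-5p were −0.723 for miR-5105 and −0.721 for miR-341-3p. With miR-26b-5p they were −0.771 for miR-341-3p and −0.683 for miR-218-5p, a neuronal miRNA. The value for miR-218-5p was −0.0265 with no scaling between arrays. The other neuronal markers detected on all arrays had r between −0.339 and 0.313 with miR-26b-5p.

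For miR-101a-3p the most alike were miR-101c (0.836), miR-338-3p (0.803) and miR-29c-3p (0.777). For miR-101b-3p they were miR-107-3p (0.778), miR-103-3p (0.761) and let-7g-5p (0.749). miR-107-3p and miR-103-3p are near-identical relatives. The lowest were −0.675 for miR-1896 and −0.665 for miR-3098-5p with miR-101a-3p, and −0.743 for miR-134-5p and −0.737 for miR-705 with miR-101b-3p. No miRNA was among the 3 most alike of both families.

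miR-26 levels correlated with those of leukocyte miRNAs. They also correlated positively with those of endothelial, smooth muscle and fibroblast miRNAs, where only miR-26a-5p passed the threshold at the scaling used here. The tumours are mixtures of cells, so that fewer cells of a type and less RNA per cell cannot be told apart. Of the marker lists for neuronal, neuroendocrine, erythroid, leukocyte, endothelial, smooth muscle and fibroblast, and skeletal muscle cells, 18 markers were detected on all arrays and were set against each of the 4 miRNAs, giving 72 correlations over which p-values were adjusted. The marker correlations were added after the most alike miRNAs in the same tumours had been seen, so their p-values are not an independent test. For scale, the 95th percentile of r over all 43071 pairs of the 294 miRNAs was 0.732. miRNAs on no marker list stood as high with miR-26a-5p, such as miR-30b-5p at 0.912 and miR-140-5p at 0.869. miR-26a-5p passed with 6 markers, all with positive r. They were miR-223-3p of myeloid cells (r = 0.838, permutation p = 0.00024, adjusted p = 0.00576; rho = 0.747), miR-142-3p of leukocytes (r = 0.770, adjusted p = 0.0226), miR-126-3p of endothelium (r = 0.763, adjusted p = 0.0226), and miR-143-3p, miR-199a-3p and miR-199a-5p of smooth muscle and fibroblasts (r = 0.726, 0.823 and 0.836, adjusted p = 0.0423, 0.0102 and 0.00666). Spearman's rho of these 6 lay between 0.747 and 0.885 (adjusted permutation p between 0.00756 and 0.0395). Leaving out the 2 tumours farthest from the median of the marker, r lay between 0.566 and 0.841. Without deficient replicate 2, which was lowest in miR-26a-5p, 2 of the 18 passed, and miR-223-3p (r = 0.769, adjusted permutation p = 0.0569) and miR-199a-3p (r = 0.713, adjusted permutation p = 0.105) did not. Without deficient replicate 1 or without wild-type replicate 2, 3 passed.

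miR-26b-5p passed with the 2 leukocyte markers, miR-142-3p (r = 0.883, permutation p = 9e-05, adjusted p = 0.00576; rho = 0.841) and miR-223-3p (r = 0.866, permutation p = 0.00017, adjusted p = 0.00576; rho = 0.835). With miR-126-3p, miR-143-3p, miR-199a-3p and miR-199a-5p, r of miR-26b-5p was 0.629, 0.599, 0.658 and 0.702. These did not pass (adjusted permutation p between 0.0562 and 0.146). Whether the 2 miR-26 members differ in these correlations was not tested. Without wild-type replicate 5, miR-26b-5p passed with 5 markers. Both leukocyte correlations of miR-26b-5p kept their call without any single tumour, at r of 0.827 or more. Leaving out the 2 tumours farthest from the median of the marker, r of miR-26b-5p was 0.696 with miR-142-3p and 0.876 with miR-223-3p. On slides 1 and 2, r with miR-223-3p was 0.962 and 0.810, and in deficient and wild-type tumours it was 0.924 and 0.798.

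The red-cell markers did not pass for either miR-26 member. For miR-451, r was 0.393 with miR-26a-5p and 0.321 with miR-26b-5p, and for miR-144-3p it was 0.274 and 0.210 (adjusted permutation p of 0.567 or more).

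miR-223-3p itself had levels of 9.62, 7.84, 8.68, 8.37, 9.12, 9.56 and 8.99 in deficient replicates 1 to 7, against 8.86, 8.23, 8.14, 9.28, 9.74 and 9.17 in wild-type replicates 1 to 6. Deficient replicate 1 and wild-type replicate 5, the highest in miR-26b-5p, were also the highest in miR-223-3p, and deficient replicate 2 was the lowest in both. The groups overlapped. Summed over the whole leukocyte list (5 on the array, 2 detected on all arrays), the level ranged between 9.67 and 11.99 in deficient tumours and between 9.35 and 12.20 in wild-type tumours. The part of leukocytes and other cells in the miR-26 levels was not tested.

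For the miR-101 pair, 0 of the 18 markers passed for either member by permutation of Pearson's r. The smallest adjusted permutation p-values were 0.104 for miR-101a-3p, with the neuronal miR-153-3p (r = 0.645), and 0.308 for miR-101b-3p. The other neuronal markers had r between −0.291 and 0.550 with miR-101a-3p. The r with miR-153-3p was 0.377 without the 2 tumours farthest from its median. miR-153-3p lay at or near the floor of 4.1 in deficient replicates 3 (4.1), 7 (4.1), 5 (4.13) and 1 (4.29). At an unadjusted p under 0.05, 1 marker passed for miR-101a-3p and 0 for miR-101b-3p, and Spearman's rho also called 0 for either after adjustment. Without deficient replicate 1, 1 marker passed for miR-101a-3p. With miR-223-3p, r was 0.03 for miR-101a-3p and −0.08 for miR-101b-3p. These counts depended on the scaling. With no scaling between arrays, 8, 7, 6 and 5 markers passed for miR-26a-5p, miR-26b-5p, miR-101a-3p and miR-101b-3p. With scaling to the summed signal the counts were 6, 6, 4 and 3, with the 75th percentile over all miRNAs 6, 6, 2 and 1, and with quantile normalization 6, 3, 0 and 0, in the same order. Whether the correlations of the miR-26 and miR-101 members differ from each other was not tested. The neuronal list of the studied tumour type was present, with 7 of 8 markers on all arrays and a summed level between 11.95 and 12.67 in deficient tumours and between 11.75 and 12.95 in wild-type tumours. miR-122-5p of liver was not detected on all arrays, and miR-200c-3p and miR-141-3p of epithelium were detected on none.

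**Figure D5:**
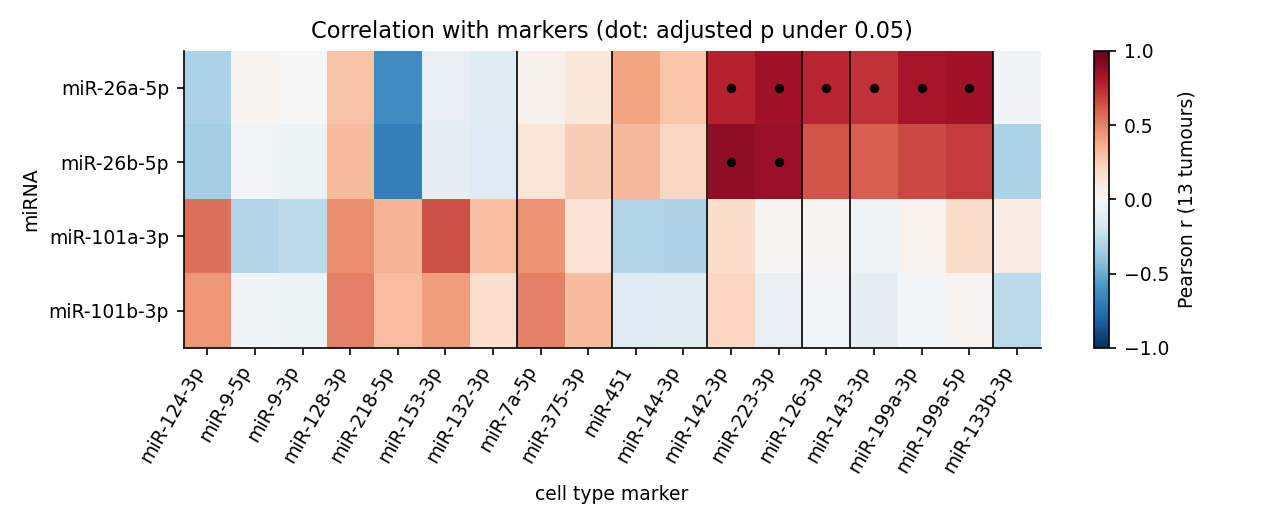
Pearson's r over 13 tumours between each of the 4 miRNAs (rows) and 18 cell type markers (columns, with lines between the lists), as colours between −1 and 1. Dots mark an adjusted permutation p under 0.05, which 6 markers reached for miR-26a-5p, 2 for miR-26b-5p and 0 for the miR-101 members at the scaling used here. Under scaling to the summed signal the miR-101 members reached 4 and 3.

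Other miRNAs reported to act on EZH2 or MYCN, or to respond to MYC proteins, gave no call either. limma called 0 at an adjusted p under 0.05 in each of the 4 lists, against 0% of all 419. Of 12 listed miRNAs reported to target EZH2, 10 were tested, with 3 higher and 7 lower in deficient tumours and a median difference of −0.04 on the log2 scale, where the median of all 419 was 0.04. The 2 with the smallest p were miR-25-3p at 0.37 (SE 0.19) and miR-138-5p at −0.85 (SE 0.50), both with a limma adjusted p of 0.589. Of these, miR-138-5p was detected in 5 of 7 deficient and 4 of 6 wild-type tumours. It averaged 5.13 ± 0.19 in deficient tumours (SD, n = 7) and 5.97 ± 1.45 in wild-type tumours (SD, n = 6), where the floor was 4.1. miR-144-3p averaged 9.51 ± 0.65 in deficient tumours (SD, n = 7) and 8.80 ± 1.04 in wild-type tumours (SD, n = 6). Its red-cell partner miR-451 averaged 14.89 ± 0.67 in deficient tumours and 13.94 ± 1.25 in wild-type tumours.

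Of 13 listed miRNAs reported to target MYCN, 12 were tested, with 5 higher and 7 lower and a median of −0.07. Of 19 reported to be repressed by MYC, 18 were tested, with 9 higher and 9 lower and a median of 0.00. miR-29b-3p, at −0.86 (SE 0.35), and miR-29c-3p, at −0.53 (SE 0.25), had the smallest p in both lists (limma adjusted p = 0.589 each). The miR-29b-3p difference was the 1 in each of these lists that passed an unadjusted p under 0.05. All 9 miRNAs of the MYC-induced miR-17-92 cluster and its paralogs had differences above 0, between 0.11 and 0.44 with a median of 0.28, and 0 of them passed an unadjusted p under 0.05. With scaling to the summed signal 8 of the 9 lay above 0. The members of such clusters are transcribed together and are not independent, and 227 of all 419 miRNAs had differences above 0. That count was 306 with no scaling and 178 with the summed signal. In the other 3 lists the split moved with the scaling too, with 6, 7 and 14 above 0 with no scaling and 3, 4 and 3 with the summed signal.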

How the data were processed

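Per the file headers, the deposited scanner files hold linear spot intensity, which Feature Extraction 10.7.3.1 (10.5.1.1 per the submitters' processing notes) corrected for background and detrended without scaling arrays to each other. The software's yes or no marks for detection and outliers, other information that the authors deposited, chose spots and miRNAs. Log2 values of the deposited series matrix, for which no background step is stated in the labels, served as an alternative.

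Within a probe, spots without outlier marks were averaged. The level of a miRNA was the sum over its probes, scaled so that the 75th percentile of the 294 miRNAs seen on every array was equal on all arrays (at its geometric mean), with a floor of 17.2 (4.1 in log2), and then log2-transformed. The 419 miRNAs detected on at least 6 of 13 arrays were tested with limma 3.58.1 (lmFit, eBayes, Benjamini-Hochberg, R 4.3.3), which was also tested on simulated data. Arrays had 338 to 469 detected miRNAs and correlated at 0.813 to 0.983. Correlations used 100000 two-sided permutations (NumPy 2.4.6).

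The named miRNAs are the 4 described, their other arms and miR-101c, the 3 most and 2 least alike of each, miR-144-3p, miR-451, and the 2 of smallest p in each list. Further cell type markers are named from the marker lists, chosen after their values were seen. miRNAs, lists and tests were chosen with earlier results of these data known, and the marker correlations were added after seeing the data. Replicate numbers are not known to pair the tumours. The deviations of same-numbered tumours correlated between −0.22 and 0.194, above 0.1 in 3 of 6 pairs. They were not set against tumours of different numbers, so this cannot decide the question. Alternatives covered scaling, background (normexp with an offset of 50 on median signals), probe summary, filter, floor, variance model, slide, replicate number and each tumour left out.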

Additional observations from a re-analysis of the deposited data

Results flagged for a closer look

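In 66 groups of tumours (33 miRNAs in 2 groups), 8 had a highest or lowest tumour that stood far from the rest of its group by Dixon's test. Chance marks about 1 in 20 groups, or 3.3 here, and none of the 8 concerned miR-26a-5p, miR-26b-5p, miR-101a-3p or miR-101b-3p. Deficient replicate 1, the highest deficient tumour in all 4 miRNAs, stood apart in its group at a level of 9.05 for miR-134-5p, 8.68 for miR-341-3p and 16.32 for the red-cell miRNA miR-451 (log2). Deficient replicate 2, the lowest deficient tumour in both miR-26 members, stood apart at 8.88 for miR-199a-3p. Deficient replicate 4 stood apart at 5.52 for miR-138-5p. Wild-type replicate 4, the lowest wild-type tumour in both miR-101 members, stood apart at 9.99 for miR-103-3p, 10.76 for miR-134-5p and 12.52 for miR-5105.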

How the results depend on the processing

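Under 32 alternatives limma called 0 miRNAs at an adjusted p under 0.05, with 7 to 63 at an unadjusted p under 0.05 against 16 as reported, and none of the 4 miRNAs was called. Differences so near 0 changed sign: miR-26a-5p was −0.10 with scaling to the summed signal and −0.00549 with outlier spots kept. miR-26b-5p was 0.00582 with the 75th percentile over all miRNAs, 0.15 with no scaling, 0.0829 with array weights, 0.20 with the slide block, and 0.30 and 0.0818 on slides 1 and 2. miR-101a-3p was 0.0876 with no scaling and 0.16 within slide 2. miR-101b-3p was −0.10 with the summed signal, −0.0119 with outlier spots kept, −0.0271 in the series matrix, −0.0544 with array weights and −0.07 within slide 1. The cause was not tested. No scaling moved the median difference of all tested miRNAs by 0.18, and the summed signal by −0.11. Leaving out each tumour gave −0.12 to 0.19 for miR-26a-5p, −0.21 to 0.18 for miR-26b-5p, −0.17 to −0.01 for miR-101a-3p and −0.10 to 0.11 for miR-101b-3p. With the replicate number as a block, which is not known to pair tumours, the differences were 0.01, −0.06, −0.07 and 0.06, with 0 called and 63 unadjusted. Both correlations within families kept their call in 24 of 24 alternatives, at 0.918 to 0.959 (miR-26) and 0.724 to 0.856 (miR-101) without 1 tumour. Counts of correlated markers, of 18, ranged between 2 and 8 for miR-26a-5p, 2 and 7 for miR-26b-5p, 0 and 6 for miR-101a-3p and 0 and 5 for miR-101b-3p, highest with no scaling for each. The miR-101 counts above 0 came with no scaling, the summed signal, the 75th percentile over all miRNAs or, for miR-101a-3p, without deficient replicate 1. Precision is limited by the number of arrays, and the 95% intervals of the 4 differences had half-widths of 0.37 to 0.71.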
